A study of Saccharomyces cerevisiae with 24 samples.

Results

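The 31 genes described here encode the subunits of the nuclear RNA polymerases I, II and III of Saccharomyces cerevisiae. They were chosen by symbol alone: every gene named RPA, RPB or RPC with a number directly after it, together with RPO21, RPO26, RPO31 and RET1. They are 31 of the 4069 genes measured. By enzyme, 7 genes encode subunits of polymerase I (Pol I) only, 7 of polymerase II (Pol II) only and 10 of polymerase III (Pol III) only. RPC40 and RPC19 serve both Pol I and Pol III, and RPB5, RPO26, RPB8, RPB10 and RPC10 are built into all 3 enzymes. Counted per enzyme, 14 subunits of Pol I, 12 of Pol II and 17 of Pol III were measured.

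Pol I transcribes the large ribosomal RNA precursor in the nucleolus, Pol II transcribes messenger RNAs, and Pol III makes transfer RNAs, the 5S ribosomal RNA and other small RNAs. Each enzyme has its own pair of large catalytic subunits around a common core, and Pol I and Pol III carry built-in subunits whose work is done for Pol II by separate general factors. In yeast most of the cell's transcription goes into ribosomal RNA and transfer RNA, and it is turned down when nutrients run out. The messenger RNAs measured here are those of the enzymes' own subunits, not the RNAs that the enzymes make.

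The study set 8 mutants from an evolution experiment for tolerance to biomass hydrolysate against fluorescent reference strains on 2-colour microarrays. The mutant PY-231 was hybridised against the reference YFP. The reference DsRed served for M1 and for PR-164, PR-338 and PR-438, and the reference GFP for PG-132, PG-259 and PG-353. Each mutant had 3 arrays, 1 on each of 3 slides, for 24 arrays in all, and the series text calls the slides biological replicates. Cy5 marked the mutant on slides 1 and 3, and the dyes were swapped on slide 2. The labels name YNB minimal medium without glucose and hydrolysate at 1 g/mL without saying which culture had which. They give neither the mutations the strains carry nor whether a mutant is 1 clone. Where all mutants of 1 reference shift alike, mutants and reference cannot be told apart.

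Values are log2 ratios of mutant to reference, set relative to the median of the named probes of the same array, so 0 is the level of the middle gene and not an unchanged amount of RNA. A gene is called when its Benjamini-Hochberg adjusted p, over all genes tested with limma, is under 0.05. The arrays carried 15647 to 15737 spots with a value, of which 2.14% to 8.28% were at or below 0 and had no logarithm. On 23 arrays the probe pairs of 1 gene correlated (Spearman) at 0.367 to 0.816, and on PY-231 replicate 1 at 0.011. M1 replicate 1 also stood apart from its group: MFA2, an a-factor gene that marks a cells, was at 0.07 there and at 6.76 and 6.26 on the other M1 arrays, and STE3, which encodes the receptor that alpha cells carry, was at 0.56 against -6.13 and -5.71. The direction of slide 2 is not stated in the labels. It was read as mutant over reference, which is no more than likely. Raw array medians were 2.44 to 5.41 on slide 2 and 0.22 to 1.41 on the others, and on M1 the mating-type genes had the same signs on slides 2 and 3 as deposited. Over all genes, however, arrays of 1 mutant correlated as deposited at a median of -0.31 between slides 1 and 2 and -0.29 between slides 2 and 3, against 0.23 between slides 1 and 3. After slide means were taken out these medians were -0.11, 0.05 and -0.06. Signs and ranks below hold for slide 2 as deposited unless a value with slide 2 turned is given.

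In single mutants, limma called 0 of the 248 combinations of a subunit gene and a mutant. Over all genes 59 of 32552 combinations were called, or 0.181%. At an unadjusted p under 0.05, 21 of the 248 passed, or 8.47%, against 9.94% over all genes. By mutant, the genes called among all 4069 made up 0% in PY-231, 0.295% in PR-438, 0.123% in PR-338, 0.492% in PR-164, 0.246% in M1, 0.221% in PG-132, 0.0492% in PG-259 and 0.0246% in PG-353. At these rates a count of 0 among 31 genes is near the background in every mutant. It does not show that the subunits were unchanged. The median residual SD of a gene was 0.38, and the precision is set by 3 arrays per mutant.

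**Figure D1:**
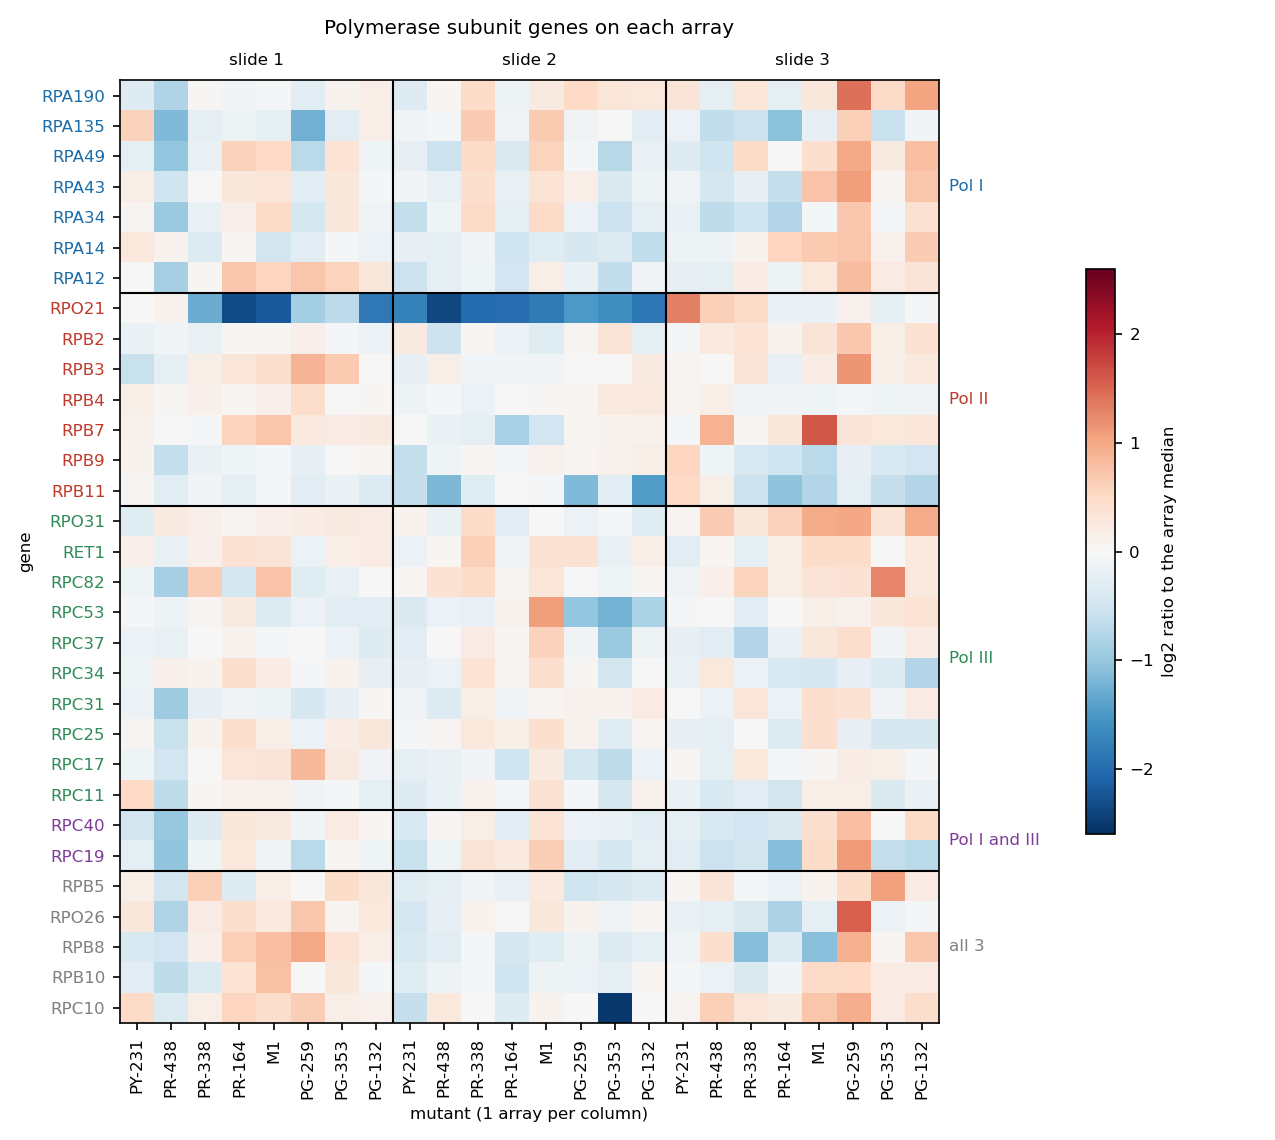
Colour gives the log2 ratio to the array median of each of the 31 subunit genes (rows, grouped by polymerase) on each of the 24 arrays (columns, grouped by slide). RPO21 is blue on all 8 arrays of slide 2 and most of slide 1, and the Pol I rows change colour together on PR-438 of slide 1 and PG-259 of slide 3.

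Averaged over the 8 mutants, 2 of the 31 subunit genes were called, both lower and both of Pol II. They were RPO21, which encodes the largest Pol II subunit with the repeat tail that is phosphorylated during transcription, and RPB11, which pairs with RPB3 in the platform on which the enzyme is assembled. In this comparison 13.3% of all genes were called and 11.2% were called lower, so 2 of 31 is below the background share. The other 29 subunit genes had means within 0.18 of 0 in either direction. Their 95% intervals lay between -0.39 and 0.35 in this fit. With slide 2 turned these limits were -0.42 (RPA135) and 0.63 (RPC10), and without slide 2 they were -0.62 (RPA135) and 0.58 (RPO31).

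RPO21 was at a mean of -1.16 ± 0.18 (SE, n = 24 arrays, limma adjusted p = 0.000135). In linear terms RPO21 was at 0.448 times the array's median ratio, with a 95% interval of 0.347 to 0.579. On slide 2 it read -1.76 in PY-231, -2.36 in PR-438, -2.01 in PR-338, -1.99 in PR-164, -1.84 in M1, -1.88 in PG-132, -1.49 in PG-259 and -1.60 in PG-353. All 8 arrays of that slide were thus far below 0, within a narrow band. On slide 1 it read 0.01 in PY-231, 0.10 in PR-438, -1.29 in PR-338, -2.33 in PR-164, -2.19 in M1, -1.85 in PG-132, -0.88 in PG-259 and -0.69 in PG-353, so 6 of the 8 arrays were below 0. On slide 3 it read 1.32, 0.62, 0.51, -0.18, -0.17, -0.03, 0.11 and -0.24 in the same order of mutants. That slide was split, with 4 arrays on either side of 0. The slide means were -1.14, -1.87 and 0.24, so the decrease was present on slides 1 and 2 and not on slide 3.

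The RPO21 result rests on slide 2, which alone has swapped dyes and so carries as much weight in the fit as both others together. Without slide 2 the mean was -0.45 (limma adjusted p = 0.161), and with slide 2 turned it was 0.71 (limma adjusted p = 0.0039), a call in the opposite direction. With the slide as a block the mean was -0.92 (limma adjusted p = 4.6e-05). The block takes the differences between slides out of the error, so its p does not measure them. Without the block the fit treats the 24 arrays as separate although 8 share each slide. Neither fit fully counts how far RPO21 varied between slides, whose means ran from -1.87 to 0.24.

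RPO21 and RPB11 also had a larger share of spots in the class called brightest here than any other subunit gene. A spot was put in this class when its ratio could not be written as a fraction with a denominator up to 10000. The class rests on the denominator of the ratio, so at a given brightness a low ratio enters it more easily. It held 77.1% of the RPO21 spots and 79.2% of the RPB11 spots. For the other subunit genes this share was at most 33.3%, in RPO26. Over all named probes 15.6% of spots belonged to that class. Of the 390 genes with at least 75% of their spots in it, 278 were called lower in the mean of 8 mutants, or 71.3%, with a median of -0.68, against 4.81% of the other 3679 genes. Without slide 2 the median of the 390 was 0.62 and 15 of them, or 3.85%, were called lower, and with slide 2 turned the median was 1.41 and 381 were called higher. RPO21 and RPB11 are themselves among the 390. Of the 390 genes, 7 lay below RPO21 and 88.7% lay below RPB11.

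By slide, the median of an array's brightest spots was -1.79 to -1.01 on slide 2, 0.02 to 0.39 on slide 1 and -0.50 to 0.16 on slide 3. RPO21 was below its own array's median of the brightest spots on 6 of the 7 arrays of slide 1 that have such a median, with differences from -2.59 to 0.08. On slide 2 it was below on all 8 arrays, with differences from -0.96 to -0.12, and on slide 3 on 3 of 8 arrays. After a loess fit of the ratio on brightness RPO21 was at -1.02 (limma adjusted p = 0.0012) and RPB11 at -0.32 (limma adjusted p = 0.034), both called. Brightness was taken from the fraction in lowest terms, so a factor common to both channels was lost. For spots of the brightest class no brightness could be recovered, and each was given the same high value within its array. The loess fit therefore could not correct for brightness within that class, which holds most spots of both genes. That fit left much of the pattern of bright genes in place: the 390 then had a median of -0.56, and 221 of them, or 56.7%, were called lower. The part that brightness has in either result was not tested further.

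**Figure D2:**
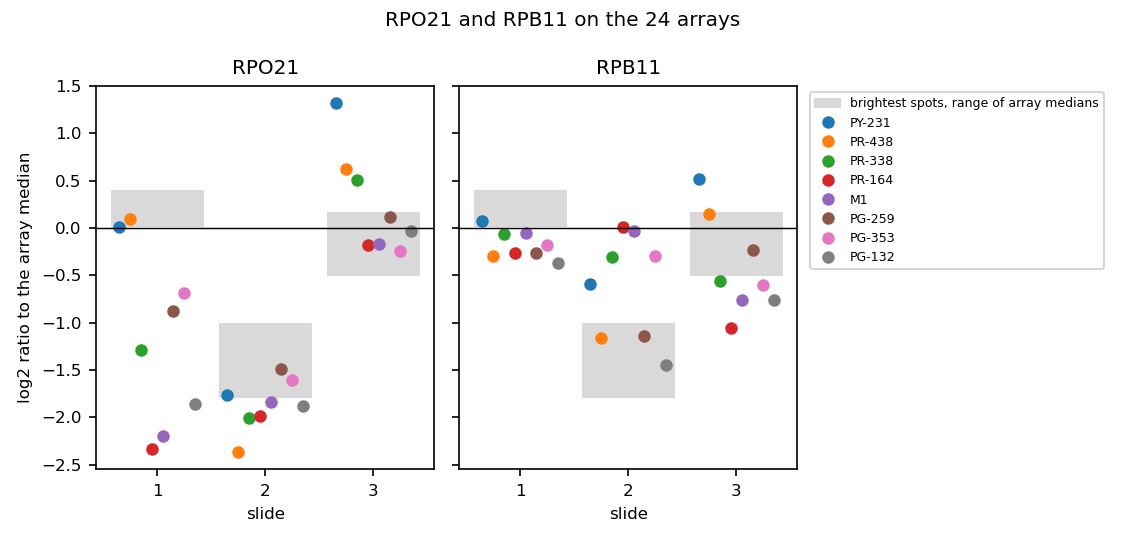
Points give the log2 ratio to the array median (vertical axis) of RPO21 and RPB11 in each mutant (colour) on each slide (horizontal axis); grey bands span the array medians of the brightest spots on that slide. RPO21 runs from -2.36 to -1.49 on slide 2, inside and below the band, and from -2.33 to 0.10 on slide 1, mostly below the band.

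With slide 2 as deposited, RPO21 was the lowest subunit gene in 7 of the 8 mutants. The fitted values were -0.78 in PR-438, -0.99 in PG-259, -1.08 in PG-353, -1.16 in PR-338, -1.49 in PG-132, -1.64 in M1 and -1.73 in PR-164, each ± 0.47 (SE, n = 3). None of these was called, with limma adjusted p from 0.100 in PR-164 and 0.129 in M1 upward. With the slide as a block, the spread between slides is taken out of the error. PR-164 at -1.50 (limma adjusted p = 0.047) and M1 at -1.40 (limma adjusted p = 0.045) were then called. Without M1 replicate 1, RPO21 was at -1.01 in M1. The remaining mutant, PY-231, had -0.38, and -0.22 without its replicate 1. Turning slide 2 put RPO21 above 0 in all 8 mutants, from 0.21 in M1 and PR-164 to 1.41 in PR-438 and 1.42 in PY-231, none of them called, and it was the highest subunit gene in PY-231, PR-438 and PR-338. The lowest subunit gene was then RPA135 in PR-438, PR-338, PG-353 and PR-164. The 2 probes of RPO21 correlated at 0.92 over the 24 arrays.

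RPB11 was at a mean of -0.46 ± 0.10 (SE, n = 24 arrays, limma adjusted p = 0.0029). In linear terms RPB11 was at 0.729 times the array's median ratio, with a 95% interval of 0.633 to 0.839. It was below 0 on 20 of the 24 arrays. Its lowest, median and highest values were -0.37, -0.22 and 0.07 on slide 1, -1.45, -0.45 and 0.02 on slide 2, and -1.05, -0.58 and 0.52 on slide 3. Unlike RPO21 it was therefore mostly below 0 on every slide. Without slide 2 it was still called, at -0.29 (limma adjusted p = 0.033), as were 1189 of all 4069 genes. With slide 2 turned it stood at 0.16 and was not called (limma adjusted p = 0.170). Among single mutants its lowest value was -0.91 ± 0.26 in PG-132 (SE, n = 3, limma adjusted p = 0.160), from arrays at -0.36, -1.45 and -0.76.

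**Figure D3:**
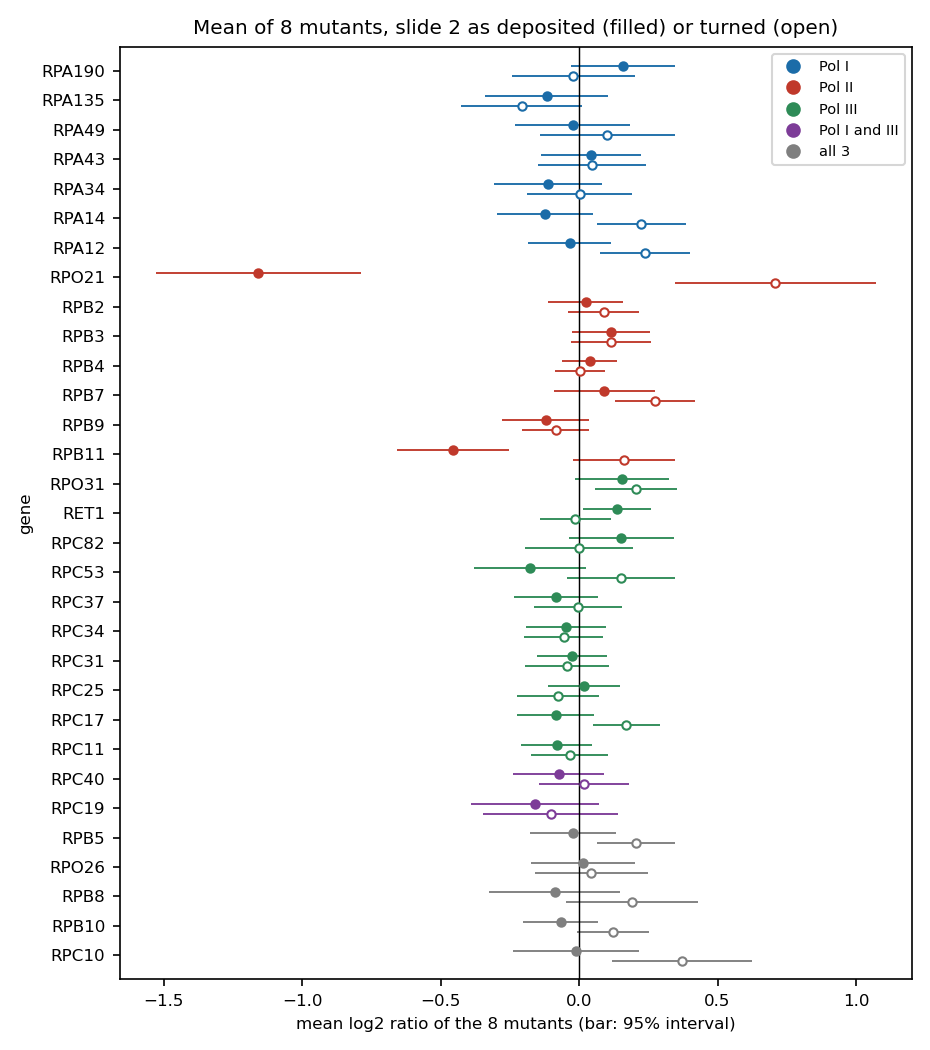
Each row gives the mean log2 ratio of the 8 mutants for 1 subunit gene with its 95% interval, with slide 2 read as deposited (filled) or turned (open), coloured by polymerase. Read as deposited, RPO21 at -1.16 and RPB11 at -0.46 stand apart from the others; turned, they stand at 0.71 and 0.16.

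The other Pol II subunits were close to 0. RPB2, which forms the other side of the active centre, had a mean of 0.02 ± 0.06 (SE, limma adjusted p = 0.83), with arrays from -0.53 to 0.70. RPB4, of the stalk that binds the emerging RNA, was among the steadiest genes on the arrays as the mean of its 2 probes. It ranged from -0.15 to 0.45, and 0.25% of all genes had a smaller SD over the 24 arrays. Its 2 probes correlated at only 0.18 over these arrays. Its partner in the stalk, RPB7, ranged more widely, from -0.85 to 1.62. RPB7 had a mean of 8 of 0.09 as deposited (limma adjusted p = 0.517). It was called at 0.37 without slide 2 (limma adjusted p = 0.012) and at 0.27 with slide 2 turned (limma adjusted p = 0.0049). In those settings 1189 and 1287 of all 4069 genes were called in the mean of 8. In M1, RPB7 was the highest subunit gene at 0.52 ± 0.24 (SE, n = 3, limma adjusted p = 0.321), from arrays at 0.72, -0.50 and 1.62. The slide 2 array had the opposite sign to the other 2, and RPB7 in M1 was called without that slide, at 1.17 (limma adjusted p = 0.033), and with that slide turned, at 0.92 (limma adjusted p = 0.015). Of all 4069 genes, 105 were called in M1 without that slide and 472 with it turned.

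RPB3, the partner of RPB11, had the smallest unadjusted p of the subunit genes in PG-259 (0.0022), with 0.64 ± 0.18 (SE, n = 3, limma adjusted p = 0.246). Its PG-259 arrays read 0.89, 0.01 and 1.14, so the slide 2 array was near 0 and the others were not. On the slide 3 array its 2 probes differed by 1.72. Over the 8 mutants RPB3 had a mean of 0.11 (limma adjusted p = 0.269), and 0.11 with slide 2 turned (limma adjusted p = 0.222). Without slide 2 it was called at 0.23 (limma adjusted p = 0.045), as were 1189 of all genes. RPB9, which bears on the fidelity of transcription, was at a mean of -0.12 ± 0.08 (SE, limma adjusted p = 0.293).

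The Pol I subunits had a median of -0.03 over the 8 mutants, and 0 of 7 were called. RPA190, the largest subunit, was at a mean of 0.16 ± 0.09 (SE, limma adjusted p = 0.252), and RPA135, the second-largest, at -0.12 ± 0.11 (SE, limma adjusted p = 0.491). When slide 2 was turned, 1287 of all 4069 genes were called in the mean of 8. RPA12 at 0.24 (limma adjusted p = 0.025) and RPA14 at 0.23 (limma adjusted p = 0.029) were among them. In PR-438 all 7 Pol I genes were below 0, at a median of -0.53, and 3 of them had an unadjusted p under 0.05. The median was -0.31 with slide 2 turned, with 1 of 7 above 0 and no unadjusted p under 0.05. RPA49 and RPA34, which form a pair on the enzyme that acts in initiation and elongation, were at -0.73 ± 0.27 and -0.58 ± 0.25 there (SE, n = 3, limma adjusted p = 0.227 and 0.323). RPA12, which takes part in cleavage of the nascent RNA, was at -0.53 ± 0.19 (SE, n = 3, limma adjusted p = 0.230). None passed the adjusted threshold, and over all genes 13.3% had an unadjusted p under 0.05 in PR-438.

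The PR-438 arrays differed in size. The Pol I median was -0.86 on slide 1, -0.19 on slide 2 and -0.46 on slide 3, so the sign was shared by the 3 arrays and most of the distance came from slide 1. RPA34 read -0.96, -0.11 and -0.66 on them, and RPA190 read -0.78, 0.06 and -0.24. M1 was the only mutant with the Pol I median above 0 on all 3 arrays, at 0.32, 0.35 and 0.29. Its fitted median was 0.26, with RPA49 at 0.48 as the highest and RPA14, a stalk subunit, at -0.12 as the lowest, and 0 of 7 called. Without M1 replicate 1 the fitted median was 0.24, with 7 of 7 above 0. It was 0.13 with slide 2 turned, with 5 of 7 above 0.

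In the mutants hybridised against GFP the Pol I genes depended on the array. In PG-259 their median was -0.30 on slide 1, -0.10 on slide 2 and 0.81 on slide 3. RPA135 went from -1.26 on slide 1 to 0.61 on slide 3, and RPA190 from -0.28 to 1.42. The 3 arrays of this mutant therefore did not give 1 direction, and its fitted median of 0.06 is an average over opposite values. In PG-132 the Pol I medians were -0.02, -0.18 and 0.65. RPA190 was the highest subunit gene of PG-132, at 0.51 ± 0.24 (SE, n = 3, limma adjusted p = 0.391), from arrays at 0.18, 0.28 and 1.03. It was at 0.26 with slide 2 turned, and RPO31 was the highest, at 0.44. In PY-231, RPA135 was the highest subunit gene at 0.18 ± 0.29 (SE, n = 3), and its value of 0.60 on replicate 1 comes from the array on which probes of a gene did not agree. Without that array RPA135 was at -0.13 in PY-231, and with slide 2 turned it was at 0.22, below RPO21.

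**Figure D4:**
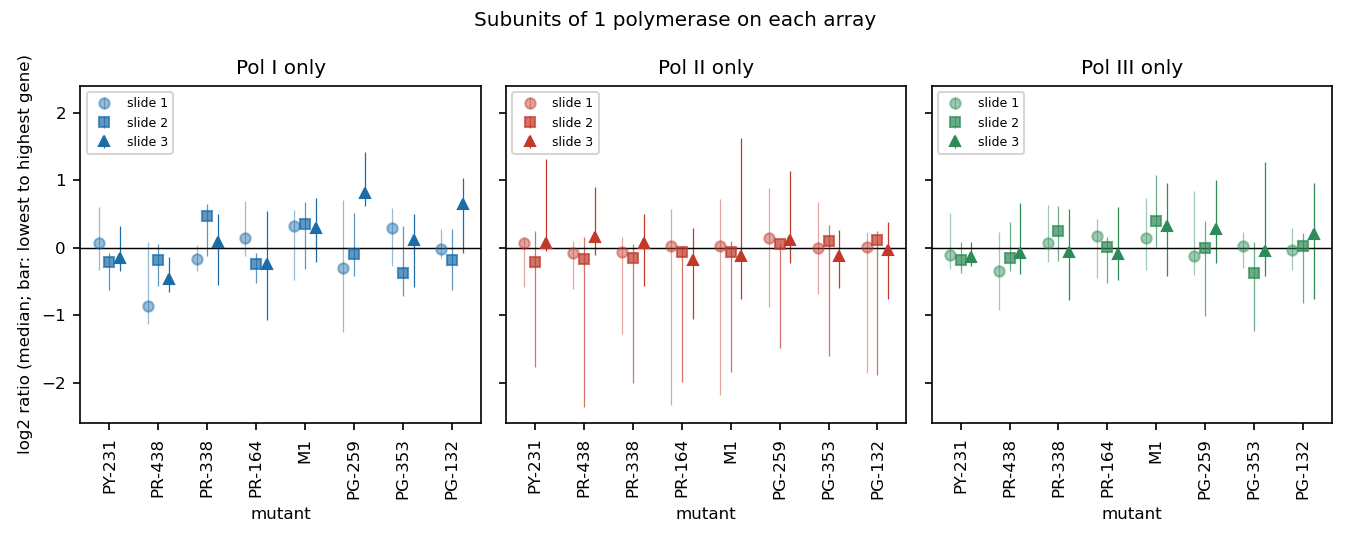
Symbols give the median log2 ratio of the subunits found in 1 polymerase only, for each mutant (horizontal axis) and slide (symbol), and bars run from the lowest to the highest gene. Pol I medians span -0.86 to 0.81 over the 24 arrays, Pol III medians -0.37 to 0.39 and Pol II medians -0.21 to 0.16.

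The Pol III subunits had a median of -0.04 over the 8 mutants, with 0 of 10 called. RPO31, the largest subunit, was at 0.16 ± 0.08 (SE, limma adjusted p = 0.205), and RET1, the second-largest and named for its effect on termination, at 0.14 ± 0.06 (SE, limma adjusted p = 0.126). RPO31 averaged 0.61 on slide 3 against 0.11 on slide 1 and -0.05 on slide 2. It was called at 0.36 without slide 2 (limma adjusted p = 0.019) and at 0.21 with slide 2 turned (limma adjusted p = 0.033). With the slide as a block it was called at 0.22 (limma adjusted p = 0.016), a p that leaves out the spread between slides. RPC17, of the Pol III stalk, was also called with slide 2 turned, at 0.17 (limma adjusted p = 0.031), and not as deposited (-0.08, limma adjusted p = 0.421). Of all 4069 genes, 1287 were called in the mean of 8 with slide 2 turned, 1189 without slide 2 and 876 with the slide as a block.

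In M1 all 10 Pol III genes were above 0, from 0.09 to 0.46 with a median of 0.27, and 2 of them, RET1 and RPC25, had an unadjusted p under 0.05. Over all genes in M1 46.5% were above 0 and 14.3% had an unadjusted p under 0.05. The Pol III median in M1 was 0.06 with slide 2 turned, with 6 of 10 above 0 and 0 at that p. RET1 read 0.34, 0.40 and 0.47 on the M1 arrays, for a fitted 0.41 ± 0.16 (SE, n = 3, limma adjusted p = 0.249). The 3 M1 values of RET1 were close to each other and all above 0. M1 replicate 1, the array without the mating-type pattern, had a Pol III median of 0.14 and the others 0.39 and 0.32. Without it the fitted Pol III median was 0.37, all 10 were still above 0, and RET1 stood at 0.43.

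RPC82, which with RPC34 and RPC31 forms the subcomplex that recognises the initiation factor TFIIIB, was the highest subunit gene in PR-338 and in PG-353 with slide 2 as deposited. In PR-338 its arrays read 0.63, 0.48 and 0.57, for 0.56 ± 0.24 (SE, n = 3, limma adjusted p = 0.411). In PG-353 they read -0.19, -0.11 and 1.27, so that its 0.32 ± 0.24 (SE, n = 3) came from 1 array, on which its probes differed by 2.50. Once slide 2 was turned, RPC82 was at 0.19 in PR-338, where RPO21 was the highest at 0.80, and at 0.35 in PG-353, where RPC10 was the highest at 0.97. RPC31 was at -0.46 ± 0.16 in PR-438 (SE, n = 3, limma adjusted p = 0.221), with arrays at -0.92, -0.34 and -0.15. In PR-164 RET1 was the highest subunit gene, at 0.16 ± 0.16, and in PR-438 RPO31 was, at 0.18 ± 0.22 (SE, n = 3 each). They were at 0.16 and 0.31 with slide 2 turned, while the highest were RPB7 at 0.54 in PR-164 and RPO21 at 1.41 in PR-438.

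The Pol III genes RPC53 and RPC37, whose products form the subcomplex for termination and reinitiation, varied together on slide 2. RPC53 read 1.08 in M1 and -1.23 in PG-353 on that slide, and on slides 1 and 3 it stayed between -0.34 and 0.35. RPC37 reached its highest value, 0.60, and its lowest, -0.97, on the same M1 and PG-353 arrays. These 2 genes were picked out after their values were seen.

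RPC40 and RPC19, which form in Pol I and Pol III the platform that RPB3 and RPB11 form in Pol II, followed the Pol I genes. RPC40 was the lowest subunit gene in PY-231, at -0.38 ± 0.21 (SE, n = 3), with arrays at -0.49, -0.39 and -0.25, and at -0.32 without replicate 1. It was at -0.09 with slide 2 turned, and RPB2 was the lowest, at -0.17. In PR-438 RPC40 was at -0.45 ± 0.21 (SE, n = 3, limma adjusted p = 0.353). In M1 both were above 0, at 0.33 and 0.37, though the RPC19 probes differed by 2.38 on the M1 array of slide 3. Neither was called in any comparison.

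Of the 5 subunits shared by all 3 enzymes, 0 were called in any comparison and all means over the 8 mutants lay between -0.09 and 0.01. With slide 2 turned RPC10 at 0.37 (limma adjusted p = 0.024) and RPB5 at 0.20 (limma adjusted p = 0.026) were called in the mean of 8, as were 1287 of all 4069 genes. Without slide 2 RPC10 was called at 0.36 (limma adjusted p = 0.011), as were 1189 of all genes. RPO26 was the highest subunit gene in PG-259, at 0.76 ± 0.24 (SE, n = 3, limma adjusted p = 0.297), with arrays at 0.71, 0.08 and 1.55. On the last of these its 2 probes differed by 2.58. It remained the highest with slide 2 turned, at 0.72. RPC10 was at -0.83 ± 0.29 in PG-353 (SE, n = 3, limma adjusted p = 0.733), from arrays at 0.17, -2.51 and 0.21, and was at 0.97 with slide 2 turned. Its slide 2 value is the lowest of any subunit gene on any array, and its probes differed by 4.64 there. Such disagreement was not shared by all subunit genes: the probe pairs of RPA135, RPO21, RPC53, RPC40 and RPA34 correlated at 0.84 to 0.94 over the 24 arrays, while those of RPB2, RPC82 and RPB5 correlated at 0.11, 0.14 and -0.09.

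The 4 mutants compared with DsRed differed from each other in 0 subunit genes by limma's moderated F test, and 0% of all genes were called in that test. At an unadjusted p under 0.05 there were 2, RPA49 and RPB10, or 6.45% against 5.55% of all genes, and both had a limma adjusted p of 0.869. Among the 3 mutants compared with GFP the same test called 0 subunit genes and 0% of all genes, and at an unadjusted p under 0.05 there was 1, RPC10, or 3.23% against 1.01% of all genes. RPO26 came next to it, and both had a limma adjusted p of 0.9999.

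M1 was set against the mean of PR-438, PR-338 and PR-164, which share its reference and slides. The subunit genes had a median difference of 0.30, and 28 of 31 were higher in M1, against a median of -0.02 and 46.3% of all genes. No subunit gene was called, nor was any other gene (0%), and 6 subunit genes or 19.4% had an unadjusted p under 0.05 against 8.99% of all genes. By enzyme, the median difference was 0.47 for Pol I with 7 of 7 higher, 0.32 for Pol III with 9 of 10 higher and 0.03 for Pol II with 6 of 7 higher. RPB10 had the smallest p, with a difference of 0.60 ± 0.20 (SE, limma adjusted p = 0.415), and RPC40 followed, with 0.60 ± 0.24 (SE, limma adjusted p = 0.488). Without M1 replicate 1 the median difference was 0.33, with 27 of 31 higher and 0 called, and RPB10 differed by 0.45. With slide 2 turned the median difference was 0.14 with 22 of 31 higher, against -0.05 and 43.5% of all genes. Then 7 of 7 Pol I genes, 7 of 10 Pol III genes and 3 of 7 Pol II genes were higher. The genes within an enzyme vary together, as described in the account of gene pairs, so these counts are not counts of separate observations.

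RNA from the 4 mutants compared with DsRed was also set against the 3 compared with GFP, a difference in which the references cannot be told apart from the mutants. Again 0 subunit genes and 0% of all genes were called. RPA190 was 0.46 ± 0.18 lower in the DsRed group (log2 difference -0.46, SE, limma adjusted p = 0.780), and RPB3 differed by -0.29 ± 0.14 (SE, limma adjusted p = 0.805). The RPA190 difference was -0.32 with slide 2 turned and -0.21 without slide 3. By enzyme, the median difference was -0.13 for Pol I, -0.12 for Pol II and 0.04 for Pol III. With slide 2 turned these medians were -0.32, 0.03 and -0.11.

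The most regular feature of these genes was that the Pol I subunits moved together from array to array. For each pair of genes Pearson's r was taken over the 24 arrays after the mean of each slide was removed, as a description with no test, since arrays share slides, references and mutants. The 21 pairs of Pol I genes had a median r of 0.67, all of them above 0, from 0.11 to 0.89. Over all 8142630 pairs of genes present on every array the median was 0.00 and 50.3% were above 0. The same median was 0.30 for the 45 pairs of Pol III genes, of which 42 were above 0, and 0.09 for the 21 pairs of Pol II genes, of which 14 were above 0. With Spearman's coefficient the medians were 0.63 for Pol I, 0.32 for Pol III and 0.09 for Pol II.

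Between enzymes, Pol I genes had a median r of 0.40 with Pol III genes and 0.03 with Pol II genes. RPC40 and RPC19 had a median r of 0.75 with the Pol I genes, as high as the Pol I genes among themselves. The highest pair of all was RPA34 with RPA43 at 0.89, followed by RPA34 with RPC40 at 0.86. RPA14 was the Pol I gene least like the others, with a median r of 0.30 to them. Of the subunits shared by all 3 enzymes, RPO26 and RPB10 had medians of 0.66 and 0.65 with the Pol I genes, and RPB8, RPB5 and RPC10 had 0.32, 0.36 and 0.43. RPB3 was the Pol II gene nearest to Pol I, with 0.41. RPO21 ran the other way, with r below 0 to all 7 Pol I genes and a median of -0.30.

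RPA43 and RPA190 are neighbouring genes on opposite strands in the R64 gene catalogue, and they had an r of 0.77. The other Pol I genes are not neighbours of each other.

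The pattern held on each slide alone, where the Pol I median r over 8 arrays was 0.65, 0.56 and 0.83 on slides 1, 2 and 3, and it does not depend on the direction of slide 2, since turning a slide turns both genes of a pair. It was 0.67 after the loess fit on brightness and 0.71 without PY-231 replicate 1. When the mean of each mutant was also removed it was 0.69, so the shared movement was present between arrays of the same mutant. Without the 2 arrays with the most extreme Pol I medians, PR-438 on slide 1 and PG-259 on slide 3, it was 0.52 and 20 of 21 pairs were above 0. For Pol III the value was 0.65 on slide 2 but 0.19 and 0.17 on slides 1 and 3.

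**Figure D5:**
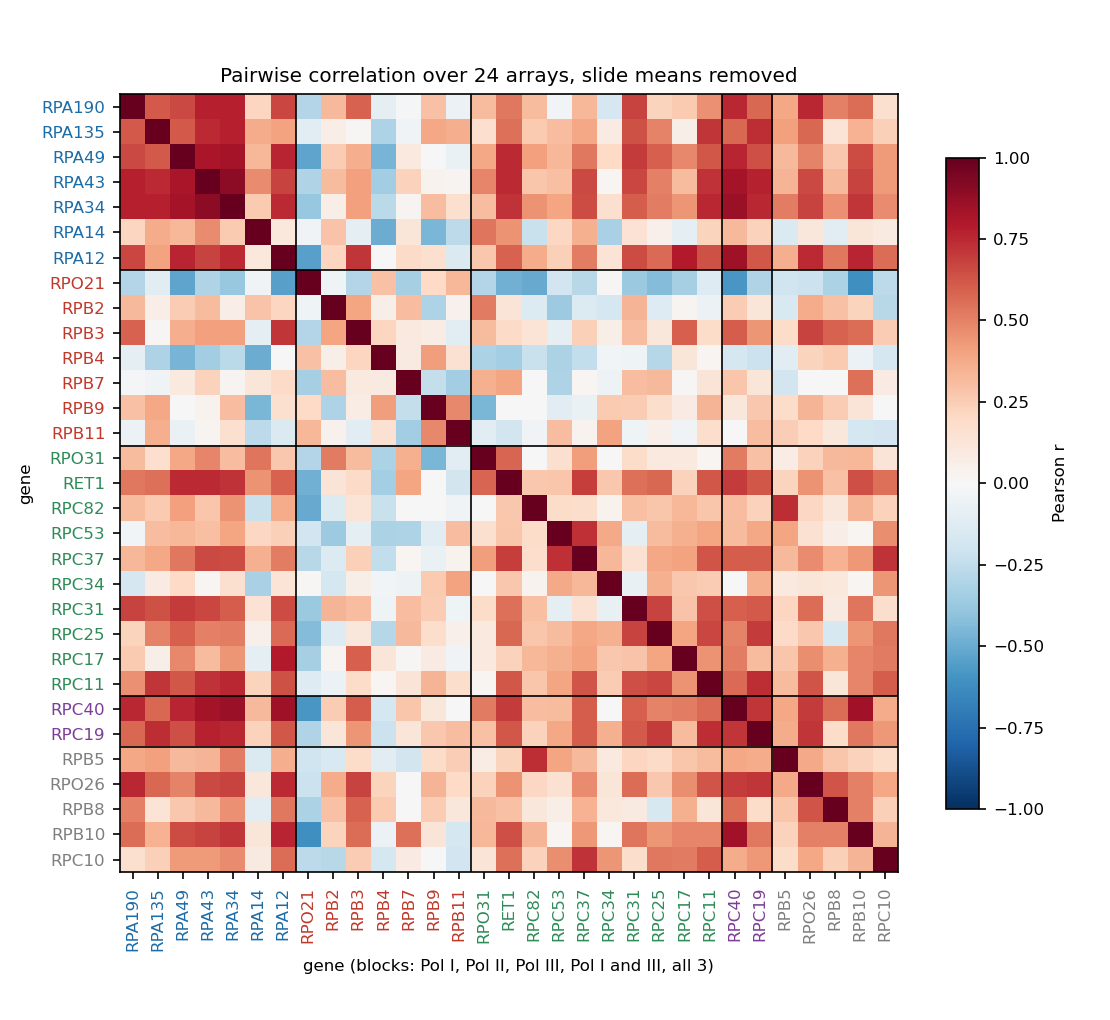
Colour gives Pearson's r between each pair of the 31 subunit genes over 24 arrays after removal of slide means, with genes grouped by polymerase on both axes. The Pol I block is red throughout and extends to RPC40 and RPC19, the Pol II block is pale with a median of 0.09, and the RPO21 row is mostly blue.

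The array-to-array movement of the Pol I genes was shared by the genes for ribosome assembly. A list of 57 ribosome biogenesis genes, which process ribosomal RNA and assemble the subunits, had a median r of 0.58 with the Pol I genes, 0.40 with the Pol III genes and 0.05 with the Pol II genes. Among themselves the 57 had a median of 0.57. The 135 genes of cytosolic ribosomal proteins, the structural parts of the ribosome, moved strongly with each other, at 0.76, but had a median of 0.28 with the Pol I genes and 0.03 with the Pol III genes. On the arrays at the extremes of Pol I, the ribosome biogenesis list had a median of -0.80 in PR-438 on slide 1 and 0.71 in PG-259 on slide 3, close to the Pol I medians of -0.86 and 0.81, while the ribosomal proteins were at 1.05 and 1.69. On these 2 arrays, chosen for the Pol I values, the ribosomal proteins were thus above 0 on both.

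In M1 the ribosome biogenesis genes had a median of 0.29 and 51 of 57 were above 0, and in PR-438 a median of -0.37 with 1 of 57 above 0. Neither mutant had a called member of that list. In M1 against the other DsRed mutants the median difference was 0.43, beside 0.47 for Pol I and 0.32 for Pol III. Turning slide 2 gave biogenesis medians of 0.00 in M1 with 28 of 57 above 0, -0.26 in PR-438 with 4 of 57 above 0, and 0.16 for the difference.

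The factors that guide the polymerases did not follow their enzymes in this way. The 11 Pol I factors had a median r of 0.09 with the Pol I genes, the 10 Pol III factors -0.02 with the Pol III genes, and the 23 measured general factors of Pol II 0.00 with the Pol II genes. In the mean of 8 mutants, where 11.2% of all genes were called lower, 1 of 11 Pol I factors or 9.09% was: HMO1, a high-mobility-group protein of the ribosomal DNA and ribosomal protein promoters, at -1.07 ± 0.10 (SE, limma adjusted p = 2.1e-06). It was also called in PG-132, at -1.57 ± 0.27 (SE, n = 3, limma adjusted p = 0.029), but not with the slide as a block (-1.24, limma adjusted p = 0.143), and with slide 2 turned it was called there at 1.18 (limma adjusted p = 0.0062). Like RPO21, HMO1 had most of its spots (83.3%) among the brightest, stood at -0.11 without slide 2 (limma adjusted p = 0.488) and was at 0.97 with slide 2 turned (limma adjusted p = 4.2e-07). RRN9, of the upstream activating factor of Pol I, was the highest of that list at 0.17 ± 0.07 (SE, limma adjusted p = 0.126).

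Among the general factors of Pol II, 2 of 23 or 8.70% were called lower, against 11.2% of all genes. FCP1, the phosphatase of the tail of RPO21, was at -0.28 ± 0.09 (SE, limma adjusted p = 0.042), and TFA1, the large subunit of TFIIE, at -0.17 ± 0.05 (SE, limma adjusted p = 0.024). TFA1 kept its sign with slide 2 turned, at -0.25 (limma adjusted p = 0.00066), and FCP1 was then at -0.11 and not called (limma adjusted p = 0.312). After the loess fit neither was called, with FCP1 at -0.23 (limma adjusted p = 0.086) and TFA1 at -0.12 (limma adjusted p = 0.210). Without slide 1 FCP1 was at -0.21 (limma adjusted p = 0.195) and TFA1 at -0.19 (limma adjusted p = 0.066). The highest of the list was SPT6, an elongation factor that travels with Pol II, at 0.19 ± 0.11 (SE, limma adjusted p = 0.274).

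None of the 10 Pol III factors was called; they ran from LHP1, which binds the ends of new Pol III transcripts, at -0.10 to TFC4, a subunit of TFIIIC, at 0.17. Of the genes for assembly and import of the polymerases only BUD27 and IWR1 were measured, at 0.07 and 0.16, neither called. The slide as a block gave more calls in these lists and over all genes, where 876 of 4069 were called in the mean of 8. It called 3 lower and 2 higher among the 11 Pol I factors and 3 lower and 2 higher among the 23 general factors of Pol II. Among the 10 Pol III factors it called 1 lower and 1 higher, and of the 2 assembly genes 1 higher. The mitochondrial polymerase is a separate enzyme: its specificity factor MTF1 was called higher at 0.15 ± 0.05 (SE, limma adjusted p = 0.044), but that call was lost with the slide as a block, at 0.085 (limma adjusted p = 0.172), and without slide 2, at -0.05 (limma adjusted p = 0.597). MTF1 was called lower with slide 2 turned, at -0.20 (limma adjusted p = 0.0055). The catalytic subunit of that polymerase, RPO41, was at 0.24 ± 0.08 (SE, limma adjusted p = 0.059).

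Of the ribosome biogenesis genes 2 of 57 or 3.51% were called lower in the mean of 8 mutants, against 11.2% of all genes. GAR1, of the pseudouridylation particles, was at -1.16 ± 0.14 (SE, limma adjusted p = 1.4e-05) with 77.1% of its spots among the brightest, at -0.06 without slide 2 and at 1.09 with slide 2 turned (limma adjusted p = 1.0e-05). NOP1, the methyltransferase of ribosomal RNA, was at -0.38 ± 0.12 (SE, limma adjusted p = 0.046) and at -0.50 without slide 2. It was not called with slide 2 turned (-0.11, limma adjusted p = 0.521), after the loess fit (-0.32, limma adjusted p = 0.132) or without slide 1 (-0.23, limma adjusted p = 0.303). EBP2, needed for the large ribosomal subunit, was the highest at 0.18. Of the 135 ribosomal protein genes 87 were called lower, with a median of -0.70, and 82.9% of their spots were among the brightest. Without slide 2 their median was 0.79, with 1 called lower and 75 called higher, and with slide 2 turned it was 1.56, with 0 called lower and 131 called higher. With the slide as a block it was -0.25, with 42 called lower.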

How the data were processed

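The deposited values come, per the labels, from GenePix result files of 24 two-colour arrays. The unit was read from the values: a linear ratio of the background-subtracted channels, with no scaling of channels or arrays, as the authors deposited it; the ratio formula and software version are not given in the sources used here. The labelling protocol states 5 µg of cDNA. Ratios at or below 0 were left out. The others were taken as log2, and the median over named probes was subtracted from each array. Of 15744 probes, 8152 carried 1 gene symbol and 7592 carried none. The 4073 symbols were brought to current names with the R64 gene catalogue (129 through a synonym, 4 unmatched and kept), giving 4069 genes as means of their probes, and 2 probes for each subunit gene. Every value column was matched to a sample.

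One fit in limma 3.58.1 (R 4.3.3, the data.table package, version 1.17.8; lmFit and eBayes) estimated each mutant's ratio and a dye term, and was tested on simulated data. The simulated noise was independent between arrays, so that test does not cover arrays that share a slide. Testing ratios against 0 does not count how far the reference cultures vary. Samples were grouped by the genotype label. Replicate numbers mark a shared slide in the labels, so they pair the samples; deviations from the mutant means correlated within slides at medians of 0.379, 0.753 and 0.308 on slides 1, 2 and 3. Correlations and figures used Python 3.11.15, numpy 2.4.6, pandas 2.3.3 and matplotlib 3.10.9.

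The alternatives left out each slide, PY-231 replicate 1 or M1 replicate 1, used the slide as a block, or turned slide 2. Others fitted loess on brightness (span 0.3), dropped spots under a recovered brightness of 100 in either channel, or centred on all probes. The rest scaled arrays, took the probe median, dropped the dye term or used arrays of the same reference only. Recovered brightness is a lower bound, since the fraction was in lowest terms. The named genes are those called in a comparison, the 2 largest subunits of each enzyme, the highest and lowest subunit gene of each mutant and the 2 smallest p of other comparisons; of other lists, those called and the highest and lowest in the mean of 8. Genes named for other reasons were chosen after their values were seen. The members, lists and tests were chosen with earlier results of these data known. Promoter motifs and sequences were not analysed here.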

Additional observations from a re-analysis of the deposited data

How the results depend on the processing

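The single-mutant count of subunit genes called (0) was 2 with the replicate block (RPO21 in PR-164 and M1) and 1 with slide 2 turned (RPB7 in M1); leaving out 1 slide or array gave 0 to 1. The count in the mean of 8 mutants (2) was 8 with slide 2 turned (RPA12, RPA14, RPB5, RPB7, RPC10, RPC17, RPO21 and RPO31), and 2 to 5 when 1 slide or array was left out, 5 of them without slide 2 (RPB11, RPB3, RPB7, RPC10 and RPO31). It was 3 with the replicate block, which added RPO31 and changed no other call of a subunit gene in that mean. With slide 2 turned RPO21 reversed from -1.16 to 0.71 and RPB11 from -0.46 to 0.16. The median of the 31 subunit genes went from -0.12 to 0.0547 in PY-231 and from 0.23 to 0.0688 in M1. It also changed sign in PG-353 (-0.0669 to 0.157), PR-164 (-0.0956 to 0.00197) and the mean of 8 (-0.0339 to 0.0470). In PR-438, PR-338, PG-259 and PG-132 it kept its sign, at -0.161, -0.0671, 0.248 and 0.148 with slide 2 turned. When 1 slide or array was left out, that median ran from -0.0504 to 0.0686 in PR-338 and from -0.0590 to 0.0597 in the mean of 8. The cause of these changes was not tested. RPA190 in the mean of 8 was called without slide 1, at 0.30 (limma adjusted p = 0.044). The other counts, 0 in each comparison between mutants, did not change under any alternative run. Over all genes the single-mutant count (59) was 34 with the replicate block, 1489 with slide 2 turned and 133 without slide 2. In the mean of 8 the count over all genes (540) was 1287 with slide 2 turned, 1189 without slide 2, 876 with the replicate block, 363 after loess and 236 with no dye term. The settings for the pair correlations were chosen after seeing the data. Spots with little signal over background have less certain ratios, and their number differed between arrays.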
